A study of Physcomitrium patens with 8 samples.

Results

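Transcript levels of the PpanrKO line (KO) and of wild type (WT) after 1 h of abscisic acid (ABA) were compared in the moss Physcomitrium patens, from 2 libraries of the 8 in the series. All genes with a mean of at least 20 deposited normalized values over the 8 libraries were described, which kept 19821 of 26610. The other 6 libraries came from untreated control, mannitol and dehydrated tissue of both genotypes. All tissue was chloronemata, the chloroplast-rich filaments of young moss protonema, of the Gransden strain 6 days after subculture. ABA was given at 1e-05 M for 1 h and mannitol at 10% w/v for 1 h, and dehydration ran until 70% of the fresh weight was lost. Each library was made from RNA of 3 biological replicates pooled beforehand, so each group is 1 library and the spread between cultures was not measured. The sources used here do not give whether the KO line is 1 clone or whether control tissue had a mock transfer.

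ABA is the plant hormone of water shortage. Its receptors inhibit phosphatases that otherwise hold SnRK2 kinases inactive, and active SnRK2 kinases phosphorylate bZIP transcription factors that switch on protective genes, among them those of late embryogenesis abundant proteins. The gene behind the name ANR (ABA NON-RESPONSIVE) encodes in this moss a Raf-like MAP kinase kinase kinase that acts on the SnRK2 step, and ABA lets moss filaments survive drying. The comparison addresses which transcript differences between KO and WT with ABA come from a WT response that KO lacks, and which were there before ABA.

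The KO ABA library held 38767634 reads and the WT ABA library 29960046, within a range of 22516957 to 38767634 over the 8 libraries. With 1 library in each group, no difference between KO ABA and WT ABA has a replicate check or a p-value, and intervals in brackets after a fold are exact 95% counting intervals of the read ratio. In bulk tissue, fewer cells of a type and less RNA per cell cannot be told apart. The gene IDs carry no names in the files and the sources used here do not give the ID of the targeted gene, so its reads give no check of the labels and no gene below is given a function. Positions are those of the V3.0 (Phytozome v10) gene models. The sources used here do not give whether strand was used in counting, and none of the genes named below overlaps a gene model on the opposite strand.

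With ABA and on the deposited scaling, KO differed from WT by long drops at one end and by many moderate gains at the other. On the log2(value + 10) scale KO ABA exceeded WT ABA at least 4-fold in 1376 genes (6.94% of the genes kept) and lay at least 4-fold below it in 1271 (6.41%), while 12111 (61.1%) lay within 2-fold. At 2-fold, 5186 genes were higher and 2524 lower, counted on the deposited scaling only. These counts include a median difference over all genes of 0.38 log2 units, which was 0.006 under median-of-ratios scaling. At 16-fold the order was the other way, with 119 higher and 548 lower, and at 256-fold 1 gene was higher and 170 were lower. No gene was higher by 1024-fold, and 77 were lower by that much. The side with more genes at 4-fold depends on the scaling: taken relative to the median of all genes, which was 0.38 (log2) above 0, 819 genes were higher and 1584 lower, whereas scaling by total reads gave 2090 higher and 1054 lower.

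The untreated libraries differed far less. At 4-fold, 179 genes were higher (0.903%) and 167 lower (0.843%) in KO control than in WT control. The standard deviation of the KO minus WT difference over genes was 1.77 log2 units with ABA, against 0.68 in control, 1.16 with mannitol and 1.56 after dehydration. Reads not scaled for depth were also counted over all 26610 genes, where 1 read stood for a deposited value of 0.945 in KO ABA and 1.62 in WT ABA. KO ABA had at most 3 reads where WT ABA had at least 100 in 168 genes. In 75 genes KO ABA had at least 100 reads where WT ABA had at most 3. In the control pair these counts were 19 and 3.

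Each difference is the sum of 3 parts: the KO minus WT difference already present in control, the response of WT to ABA taken away, and the response of KO to ABA. Each gene at least 4-fold apart was placed in a class by the largest of these parts along its difference. The parts share libraries with the difference, so the classes describe it and carry no test. Of the 1271 genes lower in KO ABA, 1052 (82.8%) were missing rises, genes higher with ABA in WT and not matched in KO, 111 were already lower in KO control, and 108 were lower with ABA in KO itself (KO falls). Of the 1376 genes higher in KO ABA, 700 (50.9%) were missing falls, 367 were already higher in KO control, and 309 were higher with ABA in KO itself (KO rises). The classes of higher genes depend on the scaling. Scaling by total reads gave 1615 missing falls (77.3% of the higher genes) and 182 already higher, and median-of-ratios scaling gave 160 already higher and 129 KO rises, of which 159 and 127 were in the lists given here. KO falls numbered 175 under median-of-ratios scaling. The members nearest the threshold lay at -2.0005 and 2.0005 inside it and at -1.9999 and 1.9999 outside it on the log2 scale.

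**Figure D1:**
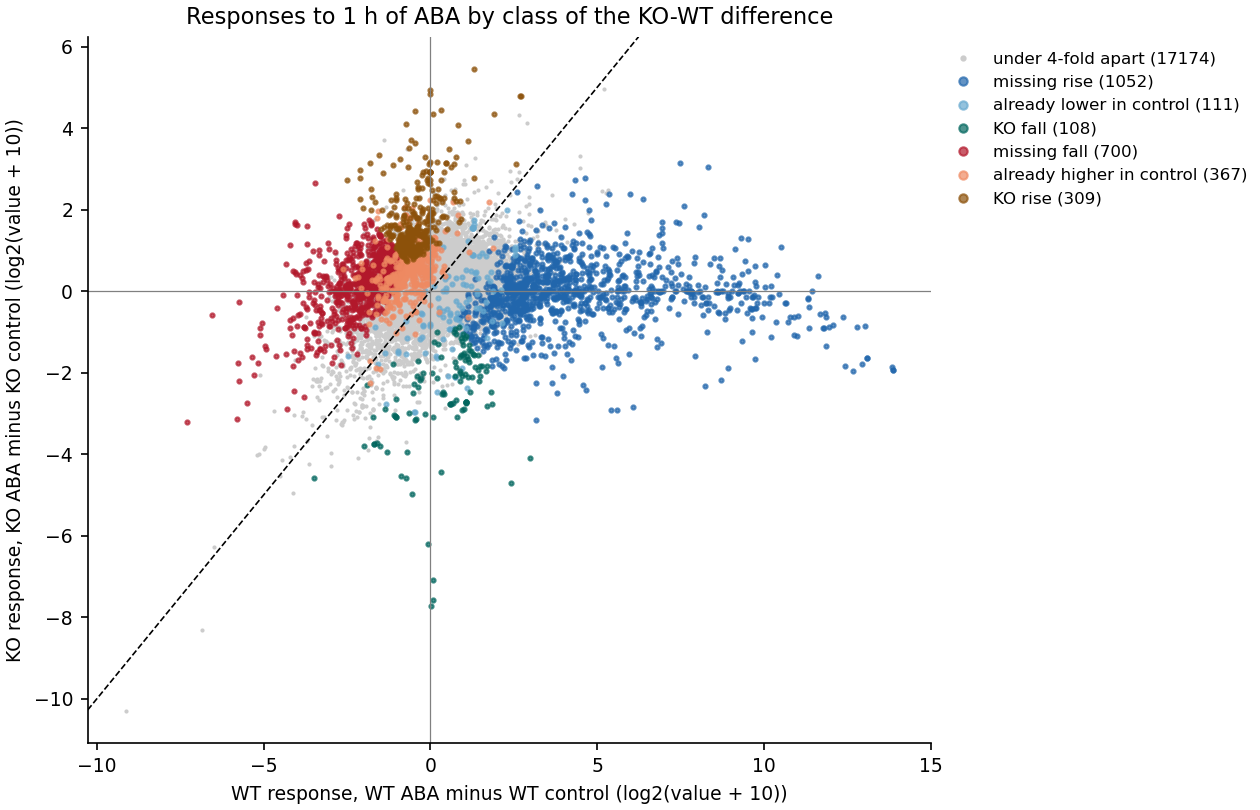
Each point is 1 gene, with the WT response to ABA (WT ABA minus WT control) on the x axis and the KO response (KO ABA minus KO control) on the y axis, both in log2(value + 10) units, coloured by class. The 1052 missing rises spread far to the right along a KO response near 0, and the dashed line marks equal responses.

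The missing rises showed almost none of the WT response in KO. A small KO response is in part built into this class, which was formed from the same 4 control and ABA libraries. Their median deposited value was 67.1 in KO ABA and 2470 in WT ABA, beside 65.6 in KO control and 96.5 in WT control. The median response was -0.04 log2 units in KO and 3.70 in WT, and the median difference between KO control and WT control was -0.23. In 861 of the 1052 (81.8%) the KO response was within 2-fold of none. In 79 it was at least 2-fold in the direction of WT, in 13 of them at least 4-fold, and in 112 it was at least 2-fold the other way.

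These transcripts took up much of the WT ABA library. The missing rises held 0.984% of the reads in KO ABA (Wilson 95% interval 0.981 to 0.987) and 25.5% in WT ABA. In control they held 1.24% in KO and 1.81% in WT, with mannitol 1.16% in KO and 7.52% in WT, and after dehydration 1.48% in KO and 17.3% in WT. The widest of these intervals was 0.0156 percentage points to either side. The 10 missing rises with the most WT ABA reads gave 0.000304% of the reads in KO ABA and 5.31% in WT ABA, and the 100 with the most gave 0.306% in KO ABA and 17.8% in WT ABA. The KO ABA share stayed near the level of the control libraries, in part through the choice of the class.

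**Figure D2:**
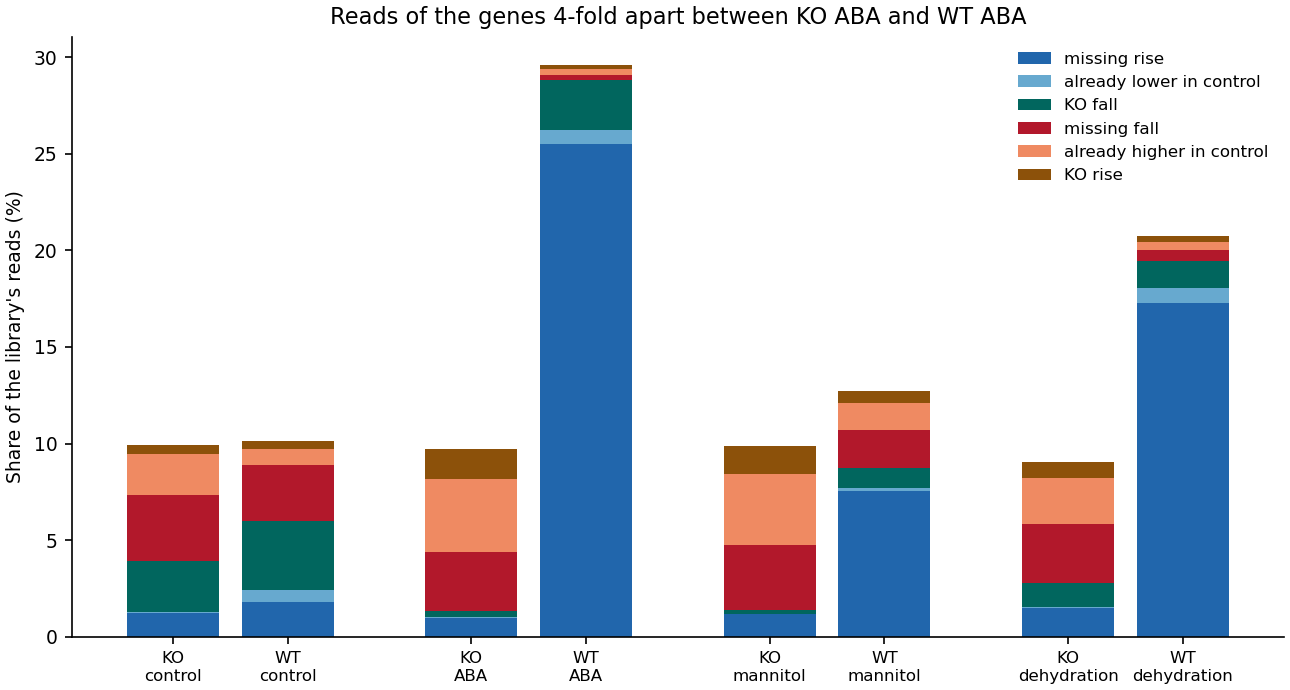
Bars give the percentage of each library's reads held by the genes at least 4-fold apart between KO ABA and WT ABA, stacked by class, with KO left of WT in each condition. Missing rises make up 0.984% of the KO ABA bar and 25.5% of the WT ABA bar.

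Among the missing rises with the largest WT response, Phpat.003G020700 (chromosome 3, 3474482 to 3475488, minus strand) had 2 reads in KO ABA and 189290 in WT ABA. It had 32 reads in KO control and 11 in WT control, 1 in KO mannitol and 10240 in WT mannitol, and 55 in KO dehydration and 63193 in WT dehydration. KO was the lower genotype in every treated pair and the higher one in control, by 3.33-fold (1.63 to 7.31). It has 2 possible copies on the same chromosome, Phpat.003G020500 and Phpat.003G020200, with near-equal values. Reads of near-identical copies may thus have been split or shared between these genes. Phpat.003G020800 (chromosome 3, 3477122 to 3478518, plus strand) had 1 read in KO ABA and 127605 in WT ABA, against 22 in KO control and 14 in WT control. With mannitol it had 1 read in KO and 10089 in WT, and after dehydration 51 in KO and 56151 in WT. It too has a possible copy, Phpat.003G020400.

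Both genes lie in the longest run of neighbouring missing rises, 9 genes in a row from Phpat.003G020200 to Phpat.003G021000 (chromosome 3, 3410948 to 3518323). The run had 10 reads in KO ABA and 858164 in WT ABA. It counts as 7 genes once equal-read genes are joined, those with reads within 2% or 2 reads of each other in every library. The wider rule for possible copies was not used for this count. The 2 lowest differences of all were in adjacent genes on the same chromosome. Phpat.003G115800 (20194227 to 20195536, minus strand) had 0 reads in KO ABA and 177526 in WT ABA, at least 101203-fold lower when 3 reads stand for 0, and was 23.6-fold lower in KO control than in WT control (16.9 to 33.9). Phpat.003G115900 (20196645 to 20197899, minus strand) had 0 reads in KO ABA and 172773 in WT ABA, and 32 reads in KO control and 678 in WT control. Both also had 0 reads in KO mannitol, beside 22741 and 21811 in WT mannitol, and 71 each in KO dehydration, beside 75769 and 72913 in WT dehydration.

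Neighbouring genes were often of the same class, in every class. Of the missing rises, 26.3% had a directly adjacent gene of the same class, and 25.9% when equal-read neighbours were not counted, against 8.10% of all genes kept. The same share was 23.4% of the genes already lower against 0.802% of all genes, 19.4% of the KO falls against 0.853%, 14.6% of the missing falls against 5.24%, 21.0% of the genes already higher against 2.71% and 12.6% of the KO rises against 2.40%. When equal-read neighbours were not counted, these class shares were 22.5%, 14.8%, 13.9%, 21.0% and 11.7% in the same order. Of the genes already higher, 95 lay on chromosome 19, described below. The data hold 23 runs of at least 3 neighbouring missing rises with 81 genes in all. After the run on chromosome 3 the longest was that of 5 genes from Phpat.011G091000 to Phpat.011G091400 (chromosome 11, 15320550 to 15346567), with 276 reads in KO ABA and 8941 in WT ABA. The classes lower in KO had shorter gene spans than the 3089 bp median of all genes kept, with medians of 2437 bp for missing rises, 1988 bp for genes already lower and 2135 bp for KO falls. A model in the older V1.6 annotation was paired with 79.9% of the missing rises, 64.9% of the genes already lower and 73.1% of the KO falls, against 77.9% of all genes. A gene on the opposite strand overlapped 6.75% of the missing rises, 1.80% of the genes already lower and 5.56% of the KO falls, against 5.33% of all genes.

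The 111 genes already lower in KO control had a median deposited value of 14.2 in KO ABA and 297 in WT ABA, beside 19.8 in KO control and 208 in WT control. Their median difference was -3.44 log2 units with ABA and -2.49 in control. Phpat.026G007800 (chromosome 26, 776337 to 777519, minus strand) had 77 reads in KO ABA and 14703 in WT ABA, which is 327-fold lower (261 to 414). In control it had 26 reads in KO and 4190 in WT, with mannitol 107 in KO and 1328 in WT, and after dehydration 22 in KO and 5607 in WT. KO was low in all conditions, and WT had its most reads with ABA. Phpat.011G015300, on the minus strand of chromosome 11 (2385571 to 2387273), showed 31 reads in KO ABA and 2040 in WT ABA, and 3 in KO control and 1417 in WT control. It had 2 in KO mannitol and 1423 in WT mannitol, and 17 in KO dehydration and 417 in WT dehydration. This gene has 3 possible copies by near-equal values. Of the 111, 9 (8.11%) lay on scaffolds outside the chromosomes, against 0.343% of all genes kept.

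The KO falls were lower with ABA in KO but mostly not in WT, where 16 of the 108 were at least 2-fold lower. They held 0.301% of the reads in KO ABA and 2.58% in WT ABA, but 2.62% in KO control and 3.58% in WT control. Their median response was -2.24 log2 units in KO and 0.75 in WT. A neighbouring pair led the class. Phpat.006G060700 (chromosome 6, 10939288 to 10940656, plus strand) had 599 reads in KO ABA and 104104 in WT ABA, which is 297-fold lower (274 to 323), beside 110031 in KO control and 171740 in WT control. Phpat.006G060600 (chromosome 6, 10934034 to 10935973, minus strand) had 874 reads in KO ABA and 155086 in WT ABA, beside 145375 in KO control and 244711 in WT control. With mannitol they had 30 and 41 reads in KO against 41048 and 58426 in WT, and after dehydration 932 and 1192 in KO against 26740 and 39259 in WT. Both were far below WT in each treated pair, and KO mannitol was the lowest library, with deposited values of 21.1 and 28.9 beside 566 and 826 in KO ABA.

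**Figure D3:**
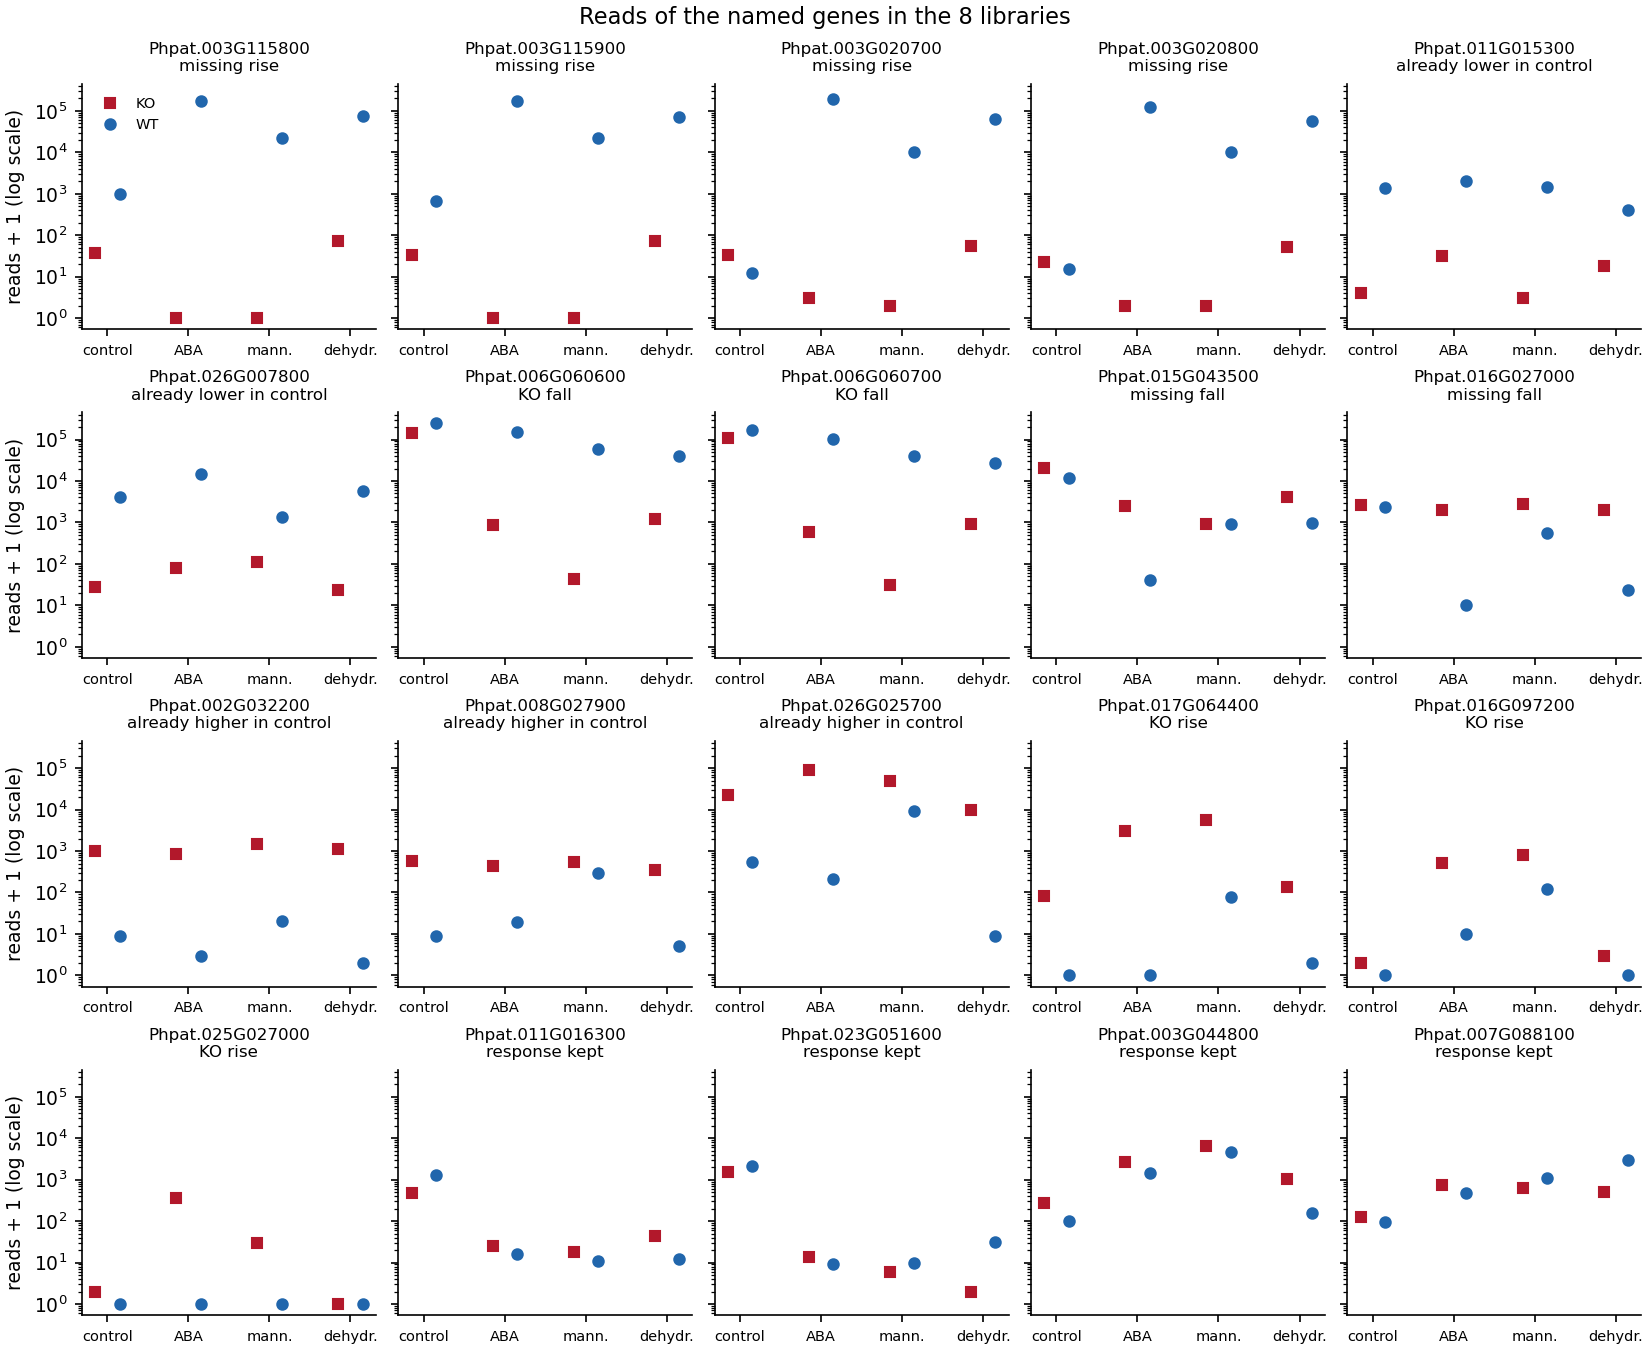
Reads plus 1 (log scale, not scaled for library depth) of the 20 named genes in the 8 libraries, with KO as squares left of WT as circles in each condition. The leading missing rises have at most 2 reads in KO ABA and 127605 or more in WT ABA, and the genes marked as response kept have similar reads in the ABA pair, such as 2645 in KO and 1483 in WT for Phpat.003G044800.

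The missing falls were more moderate than the missing rises. Their median deposited value was 463 in KO ABA and 57.3 in WT ABA, beside 422 in KO control and 289 in WT control, and the median response was 0.22 log2 units in KO and -1.94 in WT. The KO response was within 2-fold of none in 584 of the 700 (83.4%), at least 2-fold in the direction of WT in 50 and at least 2-fold the other way in 66. As with the missing rises, a small KO response is in part built into the class. They held 3.06% of the reads in KO ABA and 0.297% in WT ABA.

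Phpat.016G027000 (chromosome 16, 4402291 to 4405811, plus strand) had 2046 reads in KO ABA and 9 in WT ABA, 133-fold higher (69.9 to 291), against 2651 in KO control and 2354 in WT control. With mannitol it had 2853 reads in KO and 554 in WT, and after dehydration 1960 in KO and 22 in WT. The KO libraries were thus alike, while WT was low with ABA and after dehydration. Phpat.015G043500 (chromosome 15, 7020834 to 7022400, minus strand) kept part of the WT response. It had 2532 reads in KO ABA and 39 in WT ABA, 38.0-fold higher (27.7 to 53.5), beside 20073 in KO control and 11955 in WT control. Its log2 response was -3.20 in KO and -7.30 in WT. With mannitol it had 907 reads in KO and 897 in WT, and after dehydration 4209 in KO and 984 in WT. The genotypes thus differed little with mannitol.

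The 367 genes already higher in KO control had a median difference of 2.58 log2 units with ABA and 1.64 in control, and held 3.81% of the reads in KO ABA and 0.304% in WT ABA. Phpat.002G032200 (chromosome 2, 4798138 to 4800447, plus strand) stood at 828 reads in KO ABA and 2 in WT ABA, 242-fold higher (66.8 to 2002), and at 1019 in KO control and 8 in WT control. With mannitol it had 1510 reads in KO and 20 in WT, and after dehydration 1143 in KO and 1 in WT. Its levels in the 4 KO libraries all exceeded those in the 4 WT libraries. Phpat.008G027900 (chromosome 8, 4353726 to 4357821, minus strand) had 437 reads in KO ABA and 18 in WT ABA, and 583 in KO control and 8 in WT control. With mannitol its gap was small, 537 reads in KO and 288 in WT, while after dehydration it had 350 in KO and 4 in WT. The log2 difference was 4.50 after dehydration and 3.44 with ABA. Phpat.026G025700 (chromosome 26, 3672772 to 3675034, minus strand) had 92800 reads in KO ABA and 210 in WT ABA, and was 47.8-fold higher (43.9 to 52.1) in KO control than in WT control. It had 48866 reads in KO mannitol and 9197 in WT mannitol, and 9697 in KO dehydration and 8 in WT dehydration. The log2 difference was 8.84 after dehydration, 7.97 with ABA and 2.30 with mannitol. It has 1 possible copy, Phpat.026G026100.

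Chromosome 19 held 95 of the 367 genes already higher in KO control (25.9%), against 3.09% of all genes kept, and the other 272 lay elsewhere. KO ABA exceeded WT ABA at least 4-fold in 141 of its 613 genes (23.0%), against 6.43% of the genes elsewhere and 4.01% to 8.58% on each of the other chromosomes. The shift ran over the chromosome rather than a few genes: with ABA the median KO minus WT difference was 1.36 log2 units on chromosome 19, against 0.13 to 0.46 on each of the others. In the 16 bins of 1 Mb with at least 20 genes, the medians with ABA ran from 0.87 to 1.57.

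The same shift was seen without ABA. The median of chromosome 19 was 1.22 log2 units in control, 0.93 with mannitol and 1.14 after dehydration, and exceeded that of the genes elsewhere by 0.91 in control, 1.00 with ABA, 0.95 with mannitol and 0.89 after dehydration. These gaps correspond to 1.89-fold in control, 2.00-fold with ABA, 1.93-fold with mannitol and 1.85-fold after dehydration. In all 4 conditions 412 of the 613 genes (67.2%) lay above the median of all genes, against 17.8% of the genes elsewhere. Chromosome 19 held 4.57% to 5.44% of the reads in the KO libraries and 2.91% to 3.50% in the WT libraries. In the ABA pair it held 4.57% in KO and 3.50% in WT. Without the missing rises, these shares were 4.58% to 5.45% in the KO libraries and 2.25% to 2.89% in the WT libraries. In the ABA pair they were then 4.58% in KO and 2.25% in WT. Missing rises were chosen as high in WT ABA, so leaving them out lowers the WT ABA share by construction. DNA of the lines was not analysed here, and the cause of the shift was not tested. The shift was chosen for description after the values were seen. Without chromosome 19, KO ABA was at least 4-fold higher in 1235 genes and 272 of them were already higher in control. Missing rises made up 27 genes or 4.40% of chromosome 19, within the 3.25% to 7.28% found on single chromosomes.

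**Figure D4:**
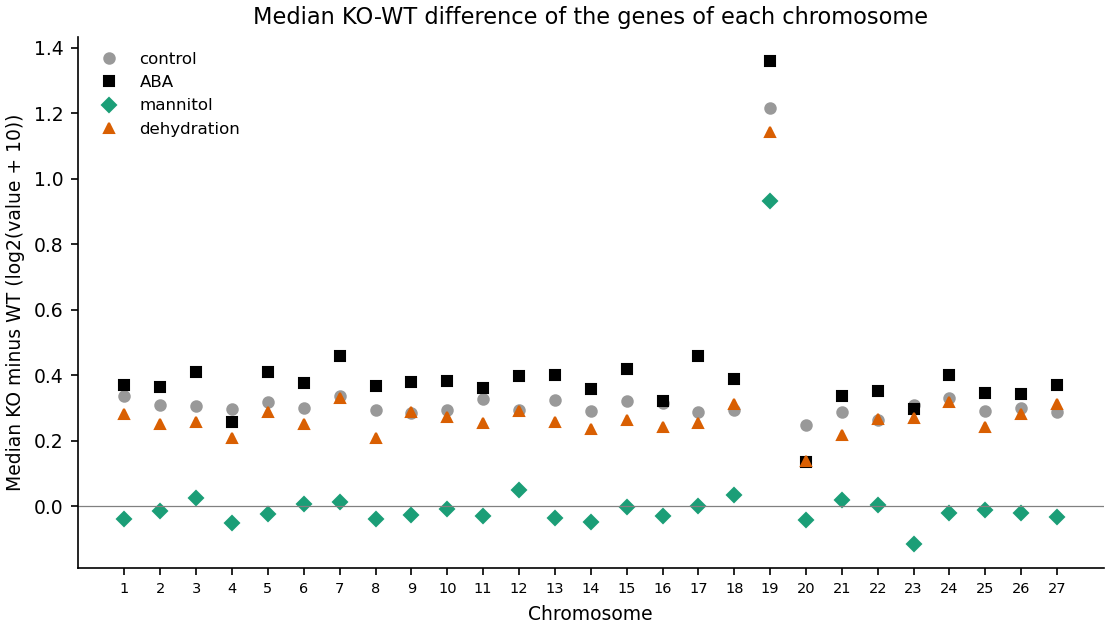
Median KO minus WT difference in log2(value + 10) of the genes kept on each of the 27 chromosomes, with 1 symbol for each condition. Chromosome 19 lies at 0.93 to 1.36 in the 4 conditions, above every other chromosome.

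The 309 KO rises had a median response of 1.51 log2 units in KO and -0.49 in WT. Phpat.016G097200 (chromosome 16, 16148924 to 16152439, minus strand) had 505 reads in KO ABA and 9 in WT ABA, 32.8-fold higher (17.1 to 72.2), and 1 in KO control and 0 in WT control. With mannitol it had 798 reads in KO and 123 in WT, and after dehydration 2 in KO and 0 in WT. Phpat.025G027000 (chromosome 25, 4728596 to 4732564, minus strand) had 351 reads in KO ABA and 0 in WT ABA, at least 68.4-fold higher, with 29 in KO mannitol and at most 1 in each of the other 5 libraries. Both were scarce in control and dehydrated tissue of either genotype. Phpat.017G064400 (chromosome 17, 11841714 to 11843147, plus strand), the highest difference of all, had 3021 reads in KO ABA and 0 in WT ABA, and 82 in KO control and 0 in WT control. It had 5763 reads in KO mannitol and 76 in WT mannitol, and 136 in KO dehydration and 1 in WT dehydration. At a pseudocount of 1 it falls among the genes already higher in control.

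Taken from the WT side and on the deposited scaling, KO lay further from WT among rises than among falls. Of the 1288 genes at least 4-fold higher with ABA in WT, 949 (73.7%) were at least 4-fold short in KO ABA and 81 (6.29%) were within 2-fold of WT ABA. The KO response was a median of 3.48% of the WT response (quartiles -5.66% and 19.7%) on the log2 scale. Of the 649 genes at least 4-fold lower with ABA in WT, 342 (52.7%) stayed at least 4-fold above in KO ABA, 116 (17.9%) were within 2-fold, and the median share kept was 25.2% (quartiles -2.46% and 54.8%). The difference between the rises and the falls was not tested, and these shares were computed on the deposited scaling only. A 4-fold gap is reached more easily where the WT response is larger. The sizes of the WT responses in the 1288 and 649 genes were not compared. How the shares of WT responders change with scaling is therefore not known. The class shares are another measure, taken over the genes 4-fold apart. Under total-count scaling missing rises made up 77.8% of the genes 4-fold lower in KO ABA. Missing falls then made up 77.3% of those 4-fold higher.

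Few genes kept both the level and the response: 4 rises and 31 falls were at least 4-fold with ABA in KO the same way as in WT and ended within 0.5 log2 units of it. Phpat.003G044800 (chromosome 3, 8197947 to 8200936, plus strand) had 2645 reads in KO ABA and 1483 in WT ABA, a 1.04-fold ratio of deposited values (0.978 to 1.11), beside 272 in KO control and 102 in WT control. Phpat.007G088100 (chromosome 7, 15733952 to 15737719, plus strand) had 755 reads in KO ABA and 468 in WT ABA, beside 123 in KO control and 92 in WT control. Among the falls, Phpat.023G051600 (chromosome 23, 10037925 to 10039715, minus strand) had 13 reads in KO ABA and 8 in WT ABA, beside 1544 in KO control and 2138 in WT control. Phpat.011G016300 (chromosome 11, 2520495 to 2521872, plus strand) had 24 reads in KO ABA and 15 in WT ABA, beside 467 in KO control and 1284 in WT control. On deposited values these 4 genes ended at nearly the same level in the ABA pair. The 2 falls rest on few reads, with fold intervals of 0.365 to 2.64 for Phpat.023G051600 and 0.471 to 1.92 for Phpat.011G016300. Their values in the ABA pair lay near the pseudocount of 10, which draws low values together on the log2 scale. The sign of the small difference between KO ABA and WT ABA depends on the scaling. For Phpat.003G044800 and Phpat.007G088100 it was -0.34 and -0.48 log2 units under median-of-ratios scaling and 0.46 and 0.31 under total-count scaling.

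The mannitol and dehydration libraries were not used to form the classes. In them KO was at least 4-fold lower than WT for 4.13% of all genes with mannitol and 5.60% after dehydration, and at least 4-fold higher for 1.78% with mannitol and 6.26% after dehydration. Of the missing rises, 556 (52.9%) lay at least 4-fold below WT with mannitol, 764 (72.6%) after dehydration and 519 (49.3%) in both, whereas 43 (4.09%) were not 2-fold lower in either. Their median difference was -2.11 log2 units with mannitol and -3.18 after dehydration. The missing falls split by condition: 76 of 700 (10.9%) lay at least 4-fold above WT with mannitol and 378 (54.0%) after dehydration, with medians of 0.65 and 2.12. KO falls were at least 4-fold lower in 43.5% with mannitol and 38.9% after dehydration, and KO rises at least 4-fold higher in 22.3% with mannitol and 22.0% after dehydration. For genes already lower in control the shares were 51.4% with mannitol and 64.9% after dehydration, and for those already higher 27.8% with mannitol and 63.5% after dehydration.

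**Figure D5:**
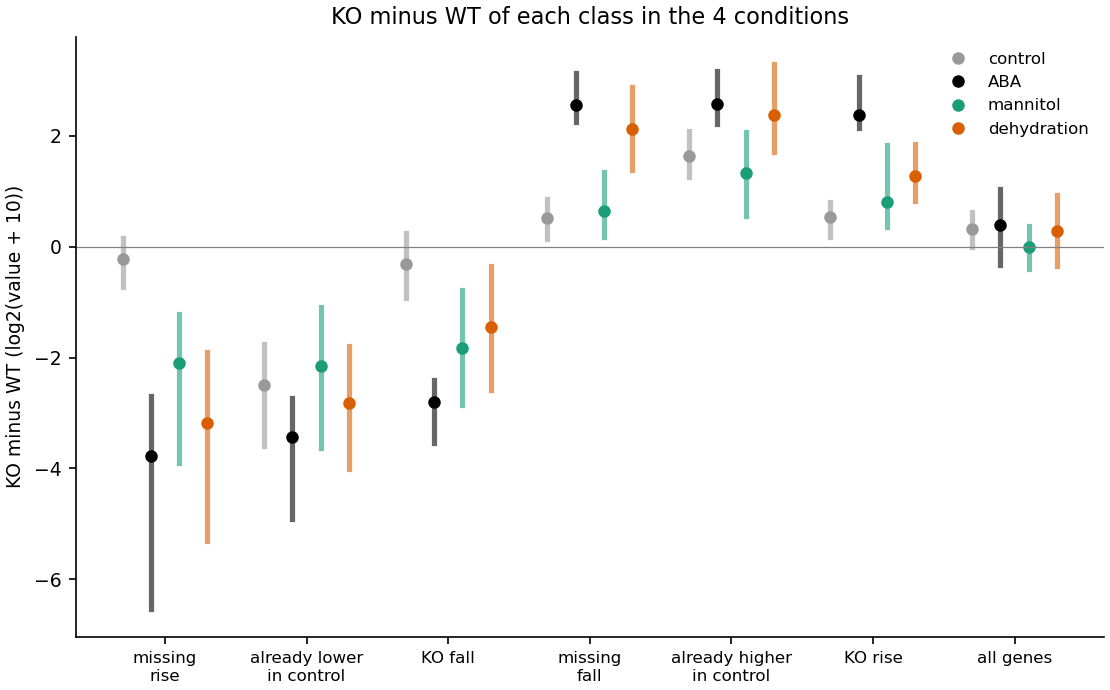
Points are the median KO minus WT difference in log2(value + 10) of each class and of all genes kept in the 4 conditions, and bars span the quartiles. Missing rises lie at -3.78 with ABA, -2.11 with mannitol and -3.18 after dehydration, and missing falls at 0.65 with mannitol and 2.12 after dehydration.

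The ABA difference was tested in 1 way, by its comparison with the mean KO minus WT difference of control, mannitol and dehydration by limma over all 8 libraries, with 2 residual degrees of freedom. It called 0 genes (0.00%) at a Benjamini-Hochberg adjusted p under 0.05, and the smallest adjusted p was 0.934. Over the alternatives of the limma and edgeR fits the smallest adjusted p ran from 0.0916, with no filter on low values, to 1. At an unadjusted p under 0.05 it had 817 genes, 526 with a positive and 291 with a negative coefficient, and the quasi-likelihood test of edgeR, run on recovered reads, also called 0, with 763 genes at an unadjusted p under 0.05. For the 20 named genes the limma adjusted p ran from 0.934 to 0.999. No gene is therefore shown to differ between KO and WT in another way with ABA than in the other conditions. Control, mannitol and dehydration form both the comparison and the residual, so the test cannot decide for genes whose difference varies among them. For Phpat.003G020700 KO minus WT was 1.14 log2 units in control, -9.51 with mannitol, -10.3 after dehydration and -14.7 with ABA. The standard error of its ABA coefficient was 4.61. The 0 calls are thus no sign that the differences are alike.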

How the data were processed

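The authors deposited 1 normalized abundance signal per gene and library for 26610 gene models of build V3.0. Tools named in the submitters' processing notes, without versions, were Trimmomatic, FastQC, TopHat2, bedtools and SAMtools, and the labels' protocols give pooled RNA, selection of polyadenylated RNA and random priming. The normalization and the use of strand are not given in the sources used here. Every deposited value was a whole multiple of 1 step per library within 0.01 read (100% of values), so whole reads were recovered by division, with no correction for gene length. Folds are ratios of deposited values, and differences use log2(value + 10), which understates the change of low genes. The lowest mean kept was 20.005 and the highest left out 19.996.

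Members and lists were chosen with earlier results of these data known. Named genes were the 2 highest and 2 lowest differences, the 2 with the largest defining part in each class, and the 2 largest responses kept in each direction, passing over possible copies. Possible copies have values within 10% plus 10 of each other in every library. Equal-read genes, used for the run and neighbour counts, have reads within 2% or 2 reads in every library and at least 100 reads in 1 library. Intervals, and limits from 3 reads in place of 0, cover counting error only, since reads without molecular identifiers are not independent molecules. The comparison of ABA with the other conditions was the only one tested here, with limma 3.58.1 on log2 values, and with edgeR 4.0.16 on the recovered reads as alternative, in R 4.3.3. Its p-values are two-sided. They set the ABA difference against the variation of KO minus WT among control, mannitol and dehydration, which holds real differences between conditions together with noise. No spread between libraries of the same group enters them. Scalings from DESeq2 1.42.0 and from edgeR, other pseudocounts and other filters were tried. The scripts of both were tested on simulated data. The gene table from RefSeq belongs to another assembly and had 0 IDs in common with the files, so planned gene lists by product name were not applied and no sequences are shown.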

Additional observations from a re-analysis of the deposited data

Results flagged for a closer look

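The 4 leading missing rises were lower with ABA in KO and higher with ABA in WT, opposite directions that were not tested with 1 library per group. The KO response was -2.31 log2 units in Phpat.003G115800, where WT had 8.24, and -2.18 in Phpat.003G115900, where WT had 8.72. It was -1.93 in Phpat.003G020700, where WT had 13.86, and -1.65 in Phpat.003G020800, where WT had 13.10. The KO values rest on few reads, 22 to 36 in KO control and 0 to 2 in KO ABA. Over all genes kept, 167 were at least 2-fold lower in KO and at least 2-fold higher in WT with ABA, and 138 were the reverse.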

How the results depend on the processing

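Of 131 values that answer a comparison, over 16 settings, 85 stayed near the value reported and 46 moved. Genes 4-fold higher made up 52.0% of all genes 4-fold apart as reported, 34.6% under median-of-ratios scaling, 36.1% under TMM scaling, 41.3% with a pseudocount of 50 and 66.5% under total-count scaling. Leaving out chromosome 19, joining equal-read genes and centring on the median of all genes were chosen after seeing the data, as was the chromosome 19 gap itself. With a pseudocount of 1, KO falls were 171, and missing rises were 78.3% of the lower genes and missing falls 55.9% of the higher genes. With a pseudocount of 50 there were 731 higher genes, 64 already lower, 62 KO falls, 342 missing falls, 225 already higher and 164 KO rises, with shares of 87.9% and 46.8% and a chromosome 19 gap of 0.84. With no filter on low values the median difference was 0.17 and the chromosome 19 gap 0.89. With a minimum mean of 100 there were 61 already lower, and shares of 85.6% and 53.9%. With median-of-ratios scaling there were 827 higher and 1564 lower genes, 175 KO falls, 160 already higher and 129 KO rises, a median of 0.006 and shares of 78.5% and 65.1%. With TMM scaling there were 869 higher and 1538 lower genes, 174 KO falls, 174 already higher and 130 KO rises, a median of 0.033 and shares of 78.3% and 65.0%. With total-count scaling there were 2090 higher and 1054 lower genes, 1615 missing falls, 182 already higher, a median of 0.75 and shares of 77.8% and 77.3%. Relative to the median of all genes there were 819 higher genes, 168 already lower, 191 KO falls, 161 already higher and 129 KO rises, with shares of 77.3% and 64.6%. The share of missing falls was 43.5% where a part had to make up at least 50% of the difference, and 54.0% without chromosome 19. Of the 1052 missing rises, 1013 kept their class under median-of-ratios scaling and 820 under total-count scaling, but of the 367 genes already higher in control 159 did so under median-of-ratios scaling. The limma test called 0 genes under every setting run, among them no filter (1607 genes at an unadjusted p under 0.05, smallest adjusted p 0.0916) and leaving out the dehydration libraries (1821 genes, smallest adjusted p 0.505). The cause of these shifts was not tested. No analysis paired by replicate number could be made, since each group is 1 library. The limma test pairs KO with WT by condition. Genes with few reads in either ABA library have wide counting intervals, and depth does not stand in for the missing replicates.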
